A study of Homo sapiens with 12 samples.

Results

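The BCL2 family decides at the outer mitochondrial membrane whether a cell lives or dies by apoptosis. Survival members (BCL2, BCL2L1, MCL1 and BCL2A1) hold the effector members BAX and BAK1 in check, and small members that carry only the BH3 domain (BID, BCL2L11, PMAIP1 and BBC3) bind and neutralise the survival members or activate the effectors. Freed effectors perforate the membrane, cytochrome c leaves the mitochondria, and caspases are activated. In monocytes and macrophages the survival members MCL1 and BCL2A1 are known for their response to inflammatory signals. The 10 genes described here were taken by symbol from the 78932 genes of the deposited tables, and each symbol occurred in 1 row.

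Messenger RNA was sequenced in THP-1 cells, an established line that grew out of a human monocytic leukaemia. Each of 4 groups had 3 libraries. NC cells were the untreated control. LPS cells received lipopolysaccharide (LPS, a bacterial outer membrane component sensed by TLR4) and ATP, a pair used to set off pyroptosis, an inflammatory form of cell death. CE cells received LPS and ATP with CsA (cyclosporin A, which blocks calcineurin) and eltrombopag (a thrombopoietin receptor agonist that also binds iron), and CEL cells received these 4 agents and luspatercept (a trap for ligands of the activin receptor family). All 3 treated groups therefore share LPS and ATP, and CE and CEL share both small-molecule drugs. The labels used here give no dose and no time, and do not say whether the libraries of a group came from separate cultures. The cells are a tumour line, so the levels below are those of leukaemic monocytic cells.

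Levels are given as CPM, each count scaled to its library's size so that libraries can be compared, and changes are on the log2 scale ± an approximate standard error (n = 3 libraries per group). Adjusted p-values come from edgeR's quasi-likelihood F-test with Benjamini-Hochberg adjustment over the 14065 genes tested, and a gene is said to rise or fall where the adjusted p is under 0.05. Libraries held 17737213 to 23183429 counts, with 21775 to 26123 genes detected. Of 10 monocyte markers, 7 reached a mean of 1 CPM in all 4 groups. The exceptions were CD14 (0.872 CPM in NC, 44.04 in LPS), CEBPA (1.43 in NC, 0.402 to 0.894 in the treated groups) and the granule enzyme gene MPO, below 1 CPM throughout. The markers summed to 822.5 to 857.2 CPM in NC, 651.4 to 686.4 in LPS, 364.6 to 537.1 in CE and 345.3 to 379 in CEL, but the lysozyme gene LYZ alone went from 595 CPM in NC to 142, 27.7 and 20.3. Without LYZ the sums were 241 to 246.5, 502.3 to 552.6, 336.9 to 511 and 323.5 to 359.2 CPM, so the markers did not decline together. None of the markers of lymphocytes, erythroid cells and megakaryocytes, fibroblasts, epithelium or endothelium reached 1 CPM, and no such list summed to more than 1.142 CPM in any library.

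Several libraries stood apart from others of their groups. By the chi-square of counts per degree of freedom, NC 3 differed from NC 1 and NC 2 by 145 and 130, beside 3.66 between those, and LPS 1 from LPS 2 and LPS 3 by 94.6 and 101, beside 10.6. NC 3 and LPS 1 also had the highest FPKM sums (1132219 and 1007624), and their deviations from the group means correlated across genes (r = 0.81). Of the member calls, leaving out NC 3 ended that of BAX in CEL against NC, and leaving out LPS 1 ended none. CE 2, LPS 3 and CEL 1 stood apart in another way. On the third principal component, which held 9% of the variance, CE 2 lay at 69.1 and the other CE libraries at -33.6 and -16.7. In these last 3 libraries, genes with GC-rich transcripts sat above their group mean. Across 13247 genes, the correlation of a library's deviation from its group mean with transcript GC content was 0.52 in CE 2, 0.39 in LPS 3 and 0.33 in CEL 1, and -0.40 and -0.42 in the other CE libraries. BAK1 and BCL2L1, whose transcripts hold 58.8% and 56.9% GC, followed these libraries closely, so their values are given with and without them. Over the 12 libraries, deviations of BCL2 and MCL1 (45.6% and 45.1% GC) correlated with those of BAK1 (r = 0.97 each). Those of BAX (58.9% GC) did so less (r = 0.37). Those of BCL2L11 (45.7% GC) also went with BAK1 (r = 0.76). Those of BID (49.7% GC), PMAIP1 (37.2%) and BCL2A1 (39.9%) went the other way (r = -0.82, -0.74 and -0.48). The part of GC content in these deviations was not tested.

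**Figure D1:**
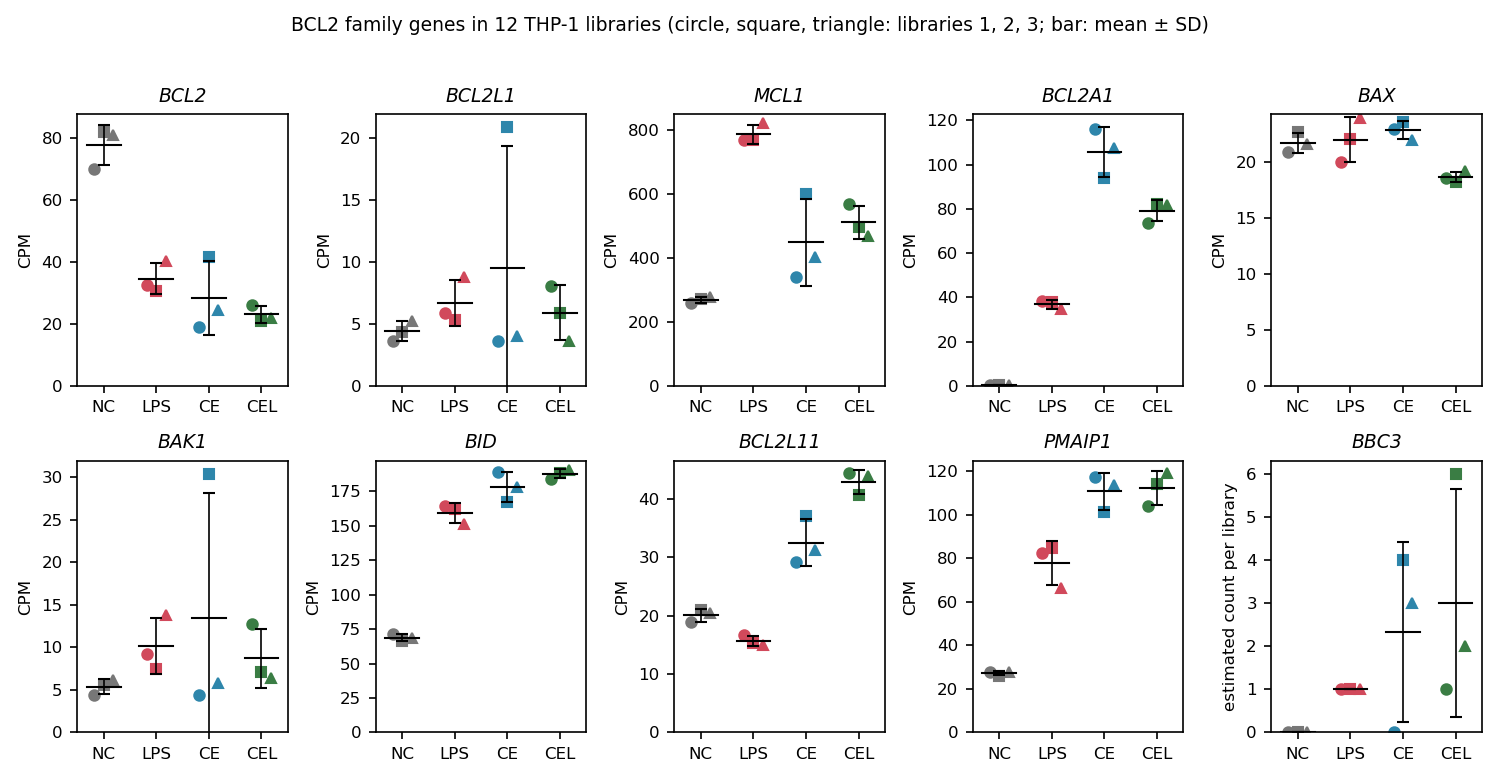
CPM (vertical axis, linear from 0) of 9 genes, and the estimated count per library of BBC3, in each of the 12 libraries by group; symbols are libraries, and bars are the mean ± SD (n = 3), with lower bars that would pass below 0 ended at the axis. BCL2A1 stands near 0 in NC and between 34.5 and 116 CPM elsewhere, and the CE 2 library (square) stands far above the other CE libraries for BCL2L1 and BAK1.

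LPS and ATP raised 4 of the 10 genes and lowered 2 compared with the control. BCL2A1, MCL1, PMAIP1 and BID rose, BCL2 and BCL2L11 fell, BAX, BAK1 and BCL2L1 did not pass the test, and BBC3 was too low to test. Of all tested genes, 45.9% changed in this comparison, 22.4% upward and 23.5% downward. The median change of the 9 tested members was 0.93, beside -0.01 over all tested genes. That median is the value of BAK1, which did not pass, and it was 0.65 without LPS 3.

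Compared with LPS, CE had 4 members higher (BCL2A1, BCL2L11, PMAIP1 and BID) and 1 lower (MCL1), where 49.6% of all genes changed, 28.8% upward and 20.7% downward. The same 4 members were higher in CEL than in LPS, and MCL1 and BAX were lower, beside 55.9% of all genes, 28.7% upward and 27.2% downward. Both comparisons use the LPS libraries. CEL against CE, the comparison that isolates luspatercept, had BCL2L11 higher and BCL2A1 and BAX lower, with 6 members not passing, where 23.6% of all genes changed, 8.78% upward and 14.8% downward. The median member change was 0.40 in CE against LPS, -0.18 in CEL against LPS and -0.29 in CEL against CE, beside 0.08, -0.03 and -0.09 over all genes. These medians rest on single libraries: without CE 2 they were 0.04 in CE against LPS and 0.08 in CEL against CE, and CEL against LPS was 0.07 without CEL 3, 0.08 without LPS 3 and -0.03 without CEL 2. In CE against LPS the median was 0.17 without LPS 2, and in CEL against CE it was -0.16 without CEL 2.

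Against the control, CE had 5 members higher (the 4 above and MCL1) and BCL2 lower, where 64% of all genes changed, 34.6% upward and 29.4% downward. CEL had the same 5 higher and BCL2 and BAX lower, where 67% changed, 34% upward and 33% downward. The median member change was 1.12 and 0.92, beside 0.09 and 0.00 over all genes, and the first was 0.49 without CE 2. The split of calls depends on the scaling. The share of calls that were higher was 48.8% in LPS against NC, 58.2% in CE against LPS, 54.1% in CE against NC and 50.7% in CEL against NC. With upper quartile factors it was 37.2%, 42.4%, 38.7% and 39.7%, and that scaling moved the median of all genes by between -0.110 and -0.288 in these comparisons. In CEL against CE the share was 37.2%, and 47.4% with library size as the only scaling, which gave 44.2% in CE against LPS. With limma on log2(TPM + 0.1), it was 73.8% in LPS against NC, 68% in CE against NC and 66.1% in CEL against NC. With limma on log2(FPKM + 1) it was 43.8% in CE against LPS and 52.4% in CEL against CE. With no low-count filter CEL against CE had 16.9%, and without CE 1 it had 55.2%. In CEL against LPS the share was 51.3%, from 41.8% with upper quartile factors to 61.2% with limma on log2(TPM + 1).

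**Figure D2:**
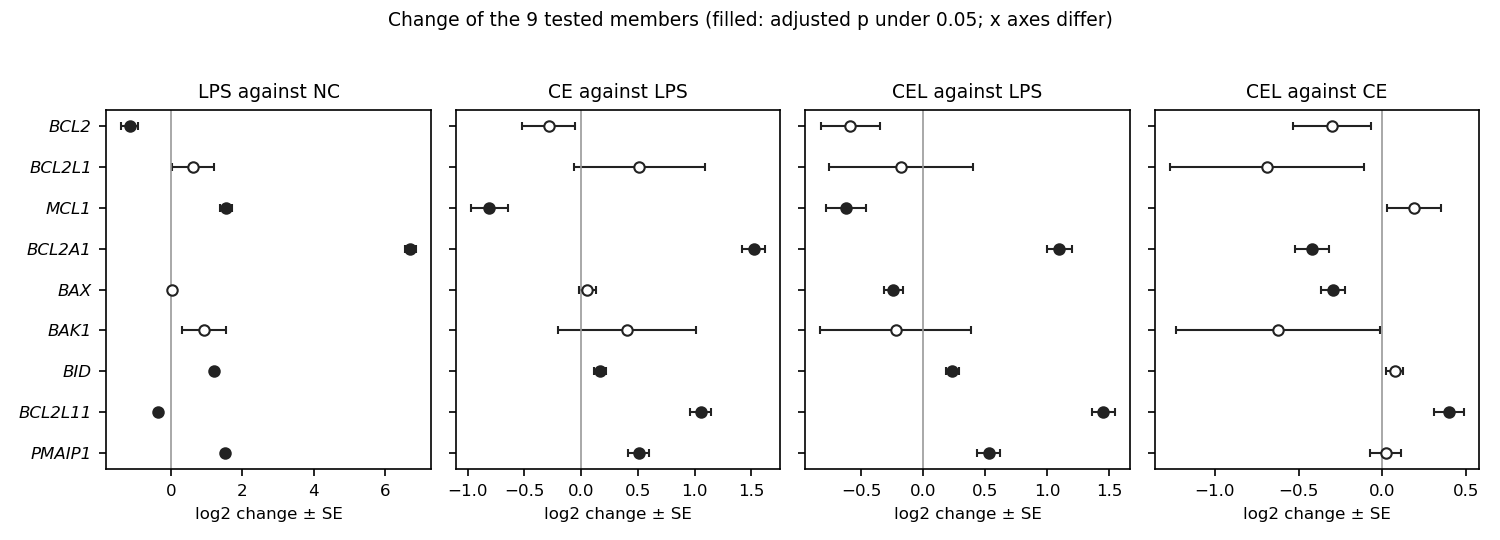
Log2 change ± SE of the 9 tested genes in 4 comparisons (horizontal axes, which differ between panels); filled points have an adjusted p under 0.05. BCL2A1 lies furthest to the right in LPS against NC at 6.71, BCL2L11 is the only gene filled to the right of 0 in CEL against CE, and BAK1 and BCL2L1 have the widest error bars.

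Among the survival genes, BCL2A1 moved most. BCL2A1 (15:79960889-79971446 on hg38, minus strand) encodes A1, also called BFL-1, a short-lived survival protein that blocks BH3-only proteins. In the control it stood at 0.415, 0.228 and 0.40 CPM, from 10, 5 and 7 counts. It reached 38.3, 38.0 and 34.5 CPM in LPS, 116, 93.8 and 107 CPM in CE, and 73.7, 82.0 and 81.8 CPM in CEL. No 2 of the 4 groups overlapped, and the order was CE, CEL, LPS, NC.

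The rise of BCL2A1 under LPS and ATP was 6.71 ± 0.16, or 105-fold (adjusted p = 2.68e-11). The control level rests on 22 counts in all, and on the log2(TPM + 1) scale, which understates changes from low values, the same rise was 5.54. From LPS it rose a further 1.52 ± 0.10 in CE (adjusted p = 4e-07) and 1.10 ± 0.10 in CEL (adjusted p = 3.26e-06). CEL was lower than CE by a log2 change of -0.42 ± 0.10 (adjusted p = 0.0119). That last call was lost on leaving out CEL 1 (-0.33), CEL 2 (-0.39), CE 1 (-0.27) or CE 3 (-0.34), and held in 11 of 19 alternative settings.

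MCL1 (1:150574551-150579738, minus strand) encodes a survival protein with a rapid turnover on which many myeloid cells depend. The control libraries held 260, 271 and 278 CPM. LPS libraries held 769, 770 and 822 CPM, CE libraries 342, 601 and 404, and CEL libraries 570, 496 and 469. Every LPS library lay above every CE and CEL library, and these lay above every control. The order was LPS, CEL, CE, NC, and CEL and CE overlapped.

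MCL1 rose by 1.55 ± 0.17 under LPS and ATP (adjusted p = 1.58e-05). It was lower than in LPS by -0.81 ± 0.16 in CE (adjusted p = 0.00147) and by -0.62 ± 0.16 in CEL (adjusted p = 0.00655), the second passing in 17 of 19 alternatives. Both drug groups stayed above the control, by 0.74 ± 0.16 (adjusted p = 0.00202) and 0.92 ± 0.16 (adjusted p = 0.000371). CEL against CE did not pass (0.19 ± 0.16, adjusted p = 0.447). Without CE 2, the highest CE library, that difference was 0.45 (adjusted p = 0.00334).

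BCL2 (18:63123346-63320128, minus strand), the founding survival gene of the family, went the other way. Control libraries held 70.2, 82.1 and 81.1 CPM, LPS libraries 32.7, 30.8 and 40.3, CE libraries 19.0, 41.7 and 24.5, and CEL libraries 26.1, 20.9 and 22.0. All 9 treated libraries lay below all controls. The order was NC, LPS, CE, CEL, and CE overlapped both of its neighbours.

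BCL2 fell by 1.17 on the log2 scale under LPS and ATP (SE 0.23, adjusted p = 0.00166), a 2.25-fold drop. It was lower than in the control by -1.45 ± 0.24 in CE (adjusted p = 0.000214) and -1.75 ± 0.24 in CEL (adjusted p = 4.54e-05). Differences within the treated groups did not pass: -0.28 ± 0.23 in CE against LPS (adjusted p = 0.348), -0.59 ± 0.23 in CEL against LPS (adjusted p = 0.0528) and -0.30 ± 0.23 in CEL against CE (adjusted p = 0.398). Leaving out CE 2 gave -0.66 in CE against LPS (adjusted p = 0.00303), and leaving out CEL 1 gave -0.66 in CEL against LPS (adjusted p = 0.0465). The CEL against LPS difference passed in 10 of 19 alternative settings.

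BCL2L1 (20:31664452-31723989, minus strand) encodes BCL-XL and, by splicing, the death-promoting BCL-XS, and the gene-level counts pool both forms. It was low: 3.61, 4.34 and 5.25 CPM in the control, 5.89, 5.35 and 8.79 in LPS, 3.64, 20.9 and 4.05 in CE, and 8.09, 5.91 and 3.65 in CEL. The CE 2 library lay above all others of the series. None of the 6 comparisons passed, with adjusted p-values of 0.12 to 0.82. Leaving out CE 2 turned CE against LPS from 0.51 ± 0.58 to -0.79 (adjusted p = 0.0565) and CE against NC from 1.12 ± 0.59 to -0.16. Leaving out CE 1 instead gave 1.42 in CE against NC (adjusted p = 0.0397).

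Levels of different genes can be compared as TPM, which divide by transcript length before scaling each library to the same total. The 4 survival genes together summed to 97.6 ± 16.6 TPM (SD) in the control, 345 ± 68.5 in LPS, 378 ± 50.5 in CE and 358 ± 24.4 in CEL. MCL1 made up 82.4 ± 0.768% of that sum in the control, 75.3 ± 1.27% in LPS, 39.3 ± 8.51% in CE and 50.4 ± 3.57% in CEL. BCL2A1 made up 0.633 ± 0.197%, 21.6 ± 1.71%, 57.9 ± 10.1% and 47.4 ± 3.99%. BCL2 was 14.8 ± 0.738% of the sum in the control and 2.07 ± 0.192% or less in the treated groups. The BCL2L1 share averaged between 0.948% and 2.15%. Transcripts of the survival genes were thus mostly MCL1 in NC and LPS, while in CE and CEL MCL1 and BCL2A1 each held a large part. These shares are given with no test.

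**Figure D3:**
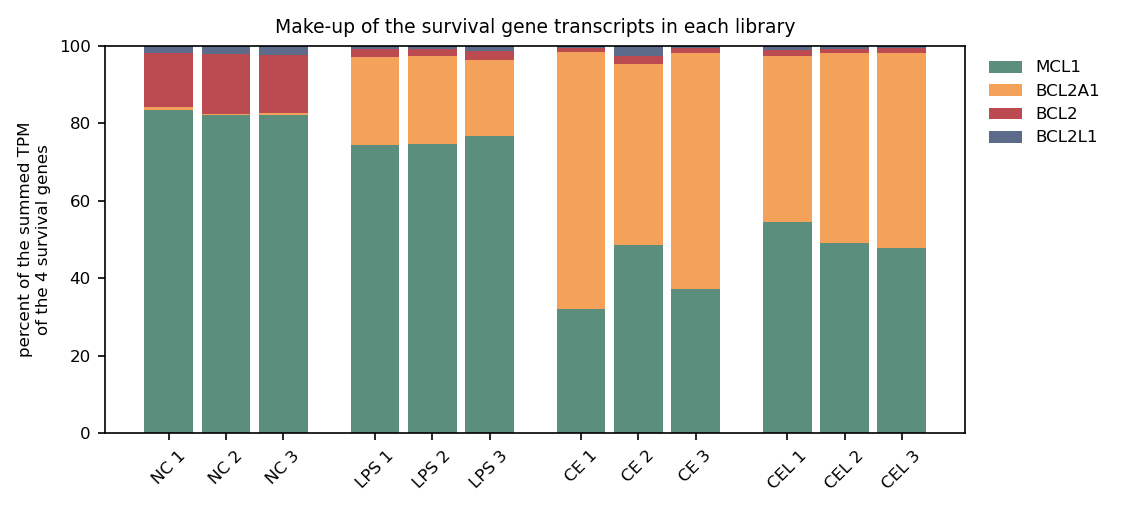
Percent of the summed TPM of the 4 survival genes taken by each gene (vertical axis) in each of the 12 libraries. MCL1 takes most of each bar in NC and LPS, BCL2A1 is close to 0 in NC and the largest part in CE 1, CE 3 and CEL 3, and CE 2 holds 48.7% MCL1 and 46.6% BCL2A1.

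The effector genes moved little or could not be resolved. BAX (19:48954815-48961798, plus strand) encodes a pore-forming protein that moves from the cytosol to mitochondria. Its level was 20.9, 22.6 and 21.6 CPM in the control, 19.99, 22.0 and 23.9 in LPS, 22.9, 23.6 and 22.0 in CE, and 18.6, 18.2 and 19.1 in CEL. The CEL libraries lay below all others, and the other 3 groups overlapped.

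BAX did not pass in LPS against NC (0.02 ± 0.07, adjusted p = 0.854), CE against LPS (0.05 ± 0.07, adjusted p = 0.579) or CE against NC (0.07 ± 0.07, adjusted p = 0.397). CEL was lower than LPS by -0.24 ± 0.07 (adjusted p = 0.0168), than CE by -0.29 ± 0.07 (adjusted p = 0.014) and than NC by -0.22 ± 0.07 (adjusted p = 0.0213). These small differences passed in 8, 7 and 10 of 19 alternatives, and none passed with an offset for transcript GC content, where the values were 0.09, -0.21 and -0.03. On log2(TPM + 1) the difference from LPS was 0.10 and that from NC 0.09, both of opposite sign. Leaving out CEL 1 or CEL 2 ended all 3 calls, with -0.21 and -0.17 against LPS, -0.25 and -0.22 against CE, and -0.20 and -0.17 against NC. Leaving out LPS 2 (-0.20) or LPS 3 (-0.17) ended the first, CE 1 (-0.21) or CE 3 (-0.25) the second, and NC 2 (-0.19) or NC 3 (-0.20) the third.

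BAK1 (6:33572547-33580293, minus strand) encodes the effector that resides on mitochondria and is held there by MCL1 and BCL-XL. Control libraries held 4.40, 5.62 and 6.11 CPM, LPS libraries 9.28, 7.48 and 13.9, CE libraries 4.38, 30.4 and 5.78, and CEL libraries 12.7, 7.11 and 6.39. The highest library of each treated group was the one that stood apart: LPS 3, CE 2 and CEL 1 lay 0.48, 1.71 and 0.60 above their group mean on the log2 scale. All LPS and CEL libraries lay above all controls, while CE 3 lay within the control range and CE 1, at 4.38, just below it.

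None of the 6 BAK1 comparisons passed, with adjusted p-values of 0.0827 to 0.786. LPS against NC was 0.93 ± 0.62 (adjusted p = 0.257). With LPS 3, CE 2 and CEL 1 left out together it was 0.66 (adjusted p = 0.0114), and CE against LPS turned from 0.40 ± 0.61 to -0.71 (adjusted p = 0.0126). Leaving out CE 2 alone gave -0.996 in CE against LPS (adjusted p = 0.0255) and -0.05 in CE against NC, which was 1.33 ± 0.62 with it. Leaving out CE 1 or CE 3 gave 1.67 (adjusted p = 0.0211) and 1.61 (adjusted p = 0.0407) in CE against NC.

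**Figure D4:**
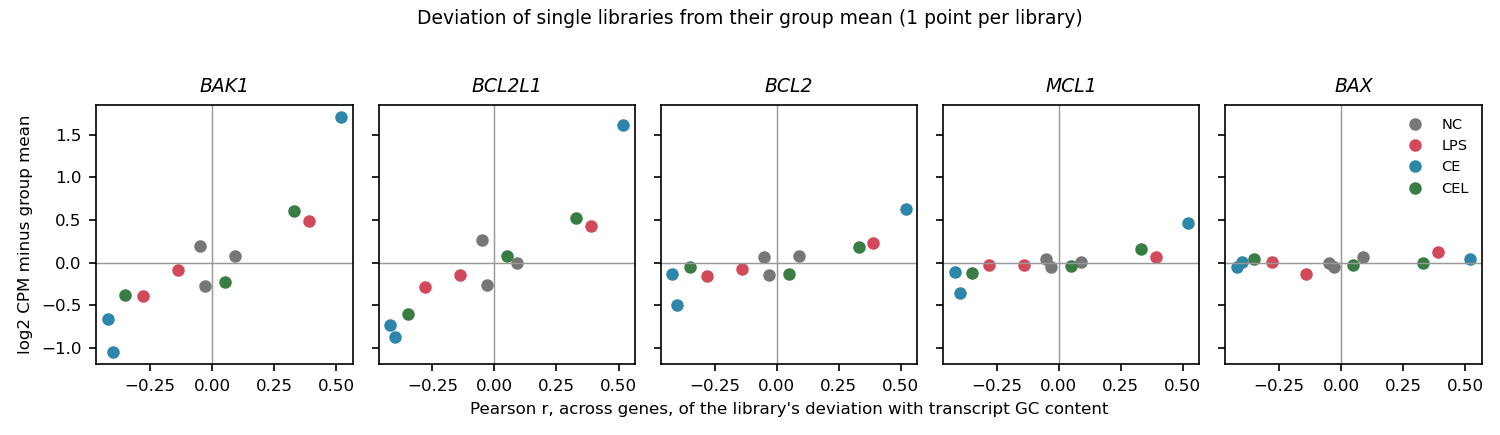
Deviation of each library from its group mean in log2 CPM (vertical axis) for 5 genes against the correlation, across genes, of that library's deviations with transcript GC content (horizontal axis); 1 point per library, coloured by group. CE 2 lies at the upper right for BAK1 (1.71) and BCL2L1 (1.61), BCL2 and MCL1 show smaller deviations of the same sign there (0.63 and 0.46), and BAX stays within 0.13 of 0 in this panel although its transcripts hold 58.9% GC.

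Of the BH3-only genes, PMAIP1 and BID rose with LPS and ATP, while BCL2L11 rose only in the groups that also received drugs. PMAIP1 (18:59899948-59904306, plus strand) encodes NOXA, which binds MCL1 and A1. It stood at 27.8, 26.1 and 27.5 CPM in the control, 82.6, 84.7 and 66.3 in LPS, 117, 101 and 113 in CE, and 104, 114 and 119 in CEL. Control, LPS and the drug groups did not overlap, and CE and CEL did.

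PMAIP1 rose by 1.52 ± 0.10 under LPS and ATP (adjusted p = 1.74e-07). It rose further, by 0.51 ± 0.09 in CE (adjusted p = 0.000823) and 0.53 ± 0.09 in CEL (adjusted p = 0.000508) over LPS, and these 3 calls held in all 19 alternatives. CEL and CE differed by 0.02 ± 0.09 (adjusted p = 0.9). The levels of PMAIP1 and of its binding partner BCL2A1 were thus both highest in the drug groups, while MCL1 was highest in LPS.

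The first 202 bases of the RefSeq window before PMAIP1 are printed here (GRCh38.p14, chr18:59899746-59899947, plus strand). They are shown because this gene stood above the control in all 3 treated groups. The whole window, of 250 bases, runs to 59899995, and the printed part ends just before the PMAIP1 start given above. Capitals mark the GC box GGGCGG, the core of SP-family sites, searched on both strands. It occurs 3 times on the strand of the gene and 1 time on the other.
PMAIP1: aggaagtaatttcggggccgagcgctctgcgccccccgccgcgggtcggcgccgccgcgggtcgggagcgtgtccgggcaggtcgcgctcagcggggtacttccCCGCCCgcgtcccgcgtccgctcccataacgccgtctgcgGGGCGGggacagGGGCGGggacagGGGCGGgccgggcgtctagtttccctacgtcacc
The same letters occur in 42.5% of the 34943 windows of 250 bases before RefSeq gene starts. Among the other members with a window, the most GC boxes in 1 window were 4 for BID, 3 for BCL2L11, 2 for BAK1 and 1 for BAX, and 0 were found for BCL2, BCL2L1, BCL2A1 and BBC3.

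BID (22:17734138-17774770, minus strand) encodes the protein that caspase-8 cleaves to link death receptors to mitochondria. Control libraries held 71.6, 66.2 and 68.4 CPM, LPS libraries 164, 163 and 151, CE libraries 189, 167 and 178, and CEL libraries 184, 188 and 191. The control lay below all treated libraries, and the order was CEL, CE, LPS, NC.

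BID rose by 1.21 ± 0.05 under LPS and ATP (adjusted p = 6.83e-09). The further differences were small: 0.16 ± 0.05 in CE against LPS (adjusted p = 0.0233), 0.24 ± 0.05 in CEL against LPS (adjusted p = 0.00237) and 0.07 ± 0.05 in CEL against CE (adjusted p = 0.347). The first passed in 4 of 19 alternatives and was -0.01 with upper quartile factors, and the second passed in 14. The first call was also lost on leaving out CE 1 (0.08), CE 3 (0.14), LPS 2 (0.16) or LPS 3 (0.14).

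BCL2L11 (2:111119378-111168447, plus strand) encodes BIM, which binds every survival member and activates BAX and BAK1. Control libraries held 18.8, 20.9 and 20.4 CPM, LPS libraries 16.6, 15.4 and 14.9, CE libraries 29.2, 37.0 and 31.2, and CEL libraries 44.4, 40.5 and 43.8. No 2 groups overlapped, and the order was CEL, CE, NC, LPS.

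BCL2L11 fell by 0.36 on the log2 scale under LPS and ATP (SE 0.09, adjusted p = 0.00733), a call that held in 16 of 19 alternatives. It was higher than in LPS by 1.05 ± 0.09 in CE (adjusted p = 2.43e-06) and 1.46 ± 0.09 in CEL (adjusted p = 1.29e-07). It exceeded the control by 0.69 ± 0.09 in CE (adjusted p = 3.73e-05) and 1.10 ± 0.09 in CEL (adjusted p = 6.62e-07), and these 4 calls held in all 19 alternatives. CEL was higher than CE by 0.40 ± 0.09 (adjusted p = 0.00706), which held in 16 of 19 alternatives and was the single member increase in the comparison that isolates luspatercept.

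A long noncoding gene on the opposite strand, MIR4435-2HG, overlaps BCL2L11, and the strand setting of the counting is not given, so reads of the overlap cannot be assigned with certainty. MIR4435-2HG was 35.3 ± 1.32 CPM (SD) in the control, 38.9 ± 1.56 in LPS, 44.9 ± 2.75 in CE and 44.9 ± 2.40 in CEL. Like BCL2L11 it was higher in CE and CEL than in LPS, but by 0.21 ± 0.07 in each (adjusted p = 0.0208 and 0.0183), and than in NC, by 0.35 ± 0.07 in each (adjusted p = 0.000653 and 0.000584). Its difference was 0.14 ± 0.07 in LPS against NC (adjusted p = 0.103), where BCL2L11 fell, and 0.00 ± 0.07 in CEL against CE (adjusted p = 1), where BCL2L11 rose. Its part in the BCL2L11 counts was not tested. The RefSeq window before the start of BCL2L11 (GRCh38.p14, chr2:111120664-111120913, plus strand, 250 bases) lies in an intron of a longer transcript of the gene and is shown because BCL2L11 is a known target of FOXO factors. Capitals mark the only match to the FOXO motif TGTTTAC, which reads on the opposite strand, 223 to 217 bases before the start.
BCL2L11: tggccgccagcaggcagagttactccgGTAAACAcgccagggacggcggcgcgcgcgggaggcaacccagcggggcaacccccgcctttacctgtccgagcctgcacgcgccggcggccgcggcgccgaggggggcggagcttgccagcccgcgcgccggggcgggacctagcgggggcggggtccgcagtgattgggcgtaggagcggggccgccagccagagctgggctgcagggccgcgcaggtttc
That motif, searched on both strands, is present in 2.98% of the 34943 windows. It was found before no other member. Windows were available for 9 of the 10 members, 14 in all, and MCL1 had no entry.

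The window before BCL2A1 was searched for the kappa-B motif by name, for the AP-1 motif TGANTCA and for the C/EBP-ATF motif TGATGNAAT. None of these was found in it. The window holds 250 bases only, so sites further from the start were not searched. They occur in 9.95%, 6.59% and 0.893% of all windows. Before the other members, kappa-B and C/EBP-ATF were not found, and AP-1 was found before BBC3, 113 to 107 bases before the start.

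BBC3 (19:47220822-47232766, minus strand) encodes PUMA, a protein that binds every survival member. It had 0 counts in each control library, 1 in each LPS library, 0, 4 and 3 in CE, and 1, 6 and 2 in CEL. The control's 0 counts allow a level of up to 0.0472 CPM (a floor of 3 counts over the group, counting error only), and the 3 counts of LPS are at the same floor. BBC3 was therefore barely detected at this depth, and no comparison is made.

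Of the other 13 BCL2 family genes, 5 were too low to test (BCL2L10, BCL2L14, BCL2L15, BOK and HRK), and the mitophagy receptors BNIP3 and BNIP3L rose in both drug groups. Of the 8 tested, 2 rose and 1 fell in LPS against NC, and 4 rose and 0 fell in CE against LPS. In CEL against LPS 3 rose and 0 fell, and in CEL against CE 2 rose and 1 fell. In the same order, 45.9%, 49.6%, 55.9% and 23.6% of all genes changed. BNIP3L, a mitophagy receptor induced by low oxygen, stood at 39.7 ± 3.18 CPM (SD) in the control, 40.5 ± 3.09 in LPS, 208 ± 19.4 in CE and 353 ± 16.3 in CEL. It rose by 2.36 ± 0.09 (adjusted p = 4.5e-09) in CE against LPS and by 0.76 ± 0.08 (adjusted p = 7.11e-05) in CEL against CE. Its relative BNIP3 rose by 1.78 ± 0.08 (adjusted p = 1.46e-08) and 0.66 ± 0.08 (adjusted p = 0.000118) in these comparisons.

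BIK, a BH3-only gene, fell by 2.06 on the log2 scale (SE 0.16, adjusted p = 1.22e-06) under LPS and ATP. From there it rose by 1.09 ± 0.16 (adjusted p = 0.000168) in CE and by 1.09 ± 0.16 (adjusted p = 0.000134) in CEL. BMF, a BH3-only gene tied to the cytoskeleton, was 1.30 ± 0.62 (adjusted p = 0.111) in LPS against NC, and was higher than in the control by 2.51 ± 0.62 (adjusted p = 0.00395) in CE and 2.40 ± 0.62 (adjusted p = 0.00468) in CEL. CE 2 held 11.3 CPM of BMF and the other CE libraries 1.72 and 2.99, and without CE 2 the difference of CE from NC was 1.35 (adjusted p = 0.00745). With limma the CE call was lost on log2(TPM + 1) (0.77) and log2(FPKM + 1) (0.59), and the CEL call on the latter (0.64). BCL2L2, a survival gene, and BAD, a BH3-only gene controlled by growth factor signals, passed in none of the 6 comparisons. In LPS against NC, BCL2L2 was 0.46 ± 0.20 (adjusted p = 0.0776) and BAD was 0.21 ± 0.62 (adjusted p = 0.819). BOK, a BAX-like gene, had 2 counts in the control and 0 in the treated groups, and HRK, a BH3-only gene, had 0 in NC and LPS, 3 in CE and 1 in CEL.

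Downstream of the mitochondria, the list of 18 apoptosome, caspase and inhibitor genes had 4 higher, 4 lower and 9 not passing in LPS against NC. It had 7 higher and 4 lower in CE against LPS, and 8 and 5 in CEL against LPS. CEL against CE had 6 and 2. These counts are of 17 tested, where 45.9%, 49.6%, 55.9% and 23.6% of all genes changed in the same order. BIRC3, an inhibitor of apoptosis and NF-kB target, rose by 4.91 ± 0.11 (adjusted p = 1.46e-11) under LPS and ATP, by 1.33 ± 0.08 (adjusted p = 1.95e-07) in CE over LPS and by 0.79 ± 0.08 (adjusted p = 5.53e-05) in CEL over CE. XIAP, which inhibits caspases directly, rose by 0.94 ± 0.18 (adjusted p = 0.00143) under LPS and ATP and by 1.16 ± 0.18 (adjusted p = 0.000158) from LPS to CEL. DIABLO, whose protein displaces caspase inhibitors, rose by 0.75 ± 0.08 (adjusted p = 1.23e-05) from LPS to CEL. CYCS, the cytochrome c gene, passed in none of the 6 comparisons and held 651 ± 24.2 CPM (SD) in the control and 729 ± 70.0 in LPS. APAF1, the apoptosome scaffold, was 0.59 ± 0.29 (adjusted p = 0.121) in LPS against NC. It was called higher in CE and in CEL than in NC. Both calls were lost with limma on TPM or FPKM, with upper quartile factors and with library size as the only scaling. They were also lost with an offset for transcript GC content and without NC 1 (0.75 and 0.59). The first call was lost without CE 2 (0.51) as well. The second was lost without CEL 1 (0.58), CEL 3 (0.74), NC 2 (0.80) or NC 3 (0.77). CASP9, the initiator caspase that APAF1 activates, was higher in CEL than in LPS by 0.60 ± 0.18 (adjusted p = 0.0144). That call was lost with limma on TPM or FPKM and with no low-count filter (0.50).

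The death receptor list of 12 genes, 10 of them tested, had 7 higher and 0 lower in LPS against NC. It had 4 higher and 3 lower in CE against LPS, and 4 and 4 in CEL against LPS. CEL against CE had 1 and 3. In the same order, 45.9%, 49.6%, 55.9% and 23.6% of all genes changed. The call of FAS in LPS against NC was lost without LPS 1 (0.32), LPS 2 (0.42), NC 1 (0.43) or NC 2 (0.40). TNFRSF10B, a receptor for TRAIL, rose by 1.60 ± 0.07 (adjusted p = 9.1e-09) under LPS and ATP and by 0.99 ± 0.07 (adjusted p = 5.32e-07) more in CE. FAS, the receptor of FAS ligand, rose by 1.27 ± 0.15 (adjusted p = 3.4e-05) in CE and 1.40 ± 0.15 (adjusted p = 1.15e-05) in CEL over LPS. CASP8, which cleaves BID, rose by 0.54 ± 0.13 (adjusted p = 0.0047) under LPS and ATP. It then fell by 0.84 on the log2 scale (SE 0.13, adjusted p = 0.000175) from LPS to CEL. CFLAR, the inhibitor of CASP8, rose by 1.10 ± 0.06 (adjusted p = 8.35e-08) under LPS and ATP and by 0.66 ± 0.06 (adjusted p = 3.68e-06) from LPS to CEL.

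Among 21 regulators that act on the family, 18 of them tested, 7 rose and 2 fell in LPS against NC. In CE against LPS 8 rose and 1 fell, in CEL against LPS 9 and 2, and in CEL against CE 3 and 1. In the same order, 45.9%, 49.6%, 55.9% and 23.6% of all genes changed. NFKB1, a subunit of a factor known to drive BCL2A1, rose by 2.26 ± 0.24 (adjusted p = 1.28e-05) under LPS and ATP. It was also called higher in CE and in CEL than in LPS. Among other settings, the CE call was lost without CE 2 (0.30) and the CEL call without LPS 1 (0.65). The part of NFKB1 in the level of BCL2A1 was not tested. DDIT3 (CHOP), a stress factor known to raise BCL2L11, rose by 1.61 ± 0.09 (adjusted p = 5.95e-08) in CE and 1.79 ± 0.09 (adjusted p = 1.74e-08) in CEL over LPS. ATF4, which acts upstream of DDIT3, rose by 0.60 ± 0.04 (adjusted p = 1.31e-07) and 0.77 ± 0.04 (adjusted p = 1.27e-08). In LPS against NC, where BCL2L11 fell, DDIT3 rose (17.1 CPM in NC, 22.7 in LPS) and ATF4 fell (248 and 208 CPM). In CEL against CE, where BCL2L11 rose, ATF4 rose and DDIT3 did not pass. The ATF4 calls in LPS against NC and CEL against CE were lost with an offset for transcript GC content (-0.36 and 0.27). Among other settings, they were also lost on log2(TPM + 1) (-0.09 and 0.23) and with no low-count filter (-0.20 and 0.10). The part of these factors in the level of BCL2L11 was not tested. FOXO3 was higher in CEL than in LPS by 1.03 ± 0.39 (adjusted p = 0.0426), a call that held in 7 of 19 alternatives. It was lost without CEL 1 (0.86), CEL 3 (1.13), LPS 1 (0.91) or LPS 2 (0.96). FOXO3 was also higher in CEL than in NC. It did not pass in LPS against NC, CE against LPS, CEL against CE or CE against NC. The part of FOXO3 in the level of BCL2L11 was not tested. CDKN1A, an inhibitor of the cell cycle, rose by 4.49 ± 0.71 (adjusted p = 0.000332) under LPS and ATP, and MDM2, a ubiquitin ligase gene, by 0.32 ± 0.06 (adjusted p = 0.00118).

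For each member, the gene whose log2 CPM over the 12 libraries had the highest Pearson r with it was sought among 7332 genes. The 12 points form 4 separate groups, and the genes share libraries, so r is given as a description with no test. The nearest were AZU1 for BCL2 (0.98), TMEM109 for BCL2L1 (0.98), HK1 for MCL1 (0.96), TPM4 for BCL2A1 (0.999), ZFP69B for BAX (0.90), RAB35 for BAK1 (0.99), ANXA2 for BID (0.999), SMAD4 for BCL2L11 (0.99) and VPS37A for PMAIP1 (0.997). These are bulk libraries, in which fewer cells that express a gene and less of its RNA per cell cannot be told apart.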

How the data were processed

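The authors deposited 3 tables over 12 libraries, placed on hg38 per the submitters' processing notes. Strandedness, read counter, aligner and gene annotation were not given in the sources used here. One deposited table holds estimated counts, which are not scaled: 29.3% of the values above 0 lie more than 0.005 from a whole number. The other tables the authors deposited hold TPM and FPKM. The columns of NC carry that name, those of LPS name pyroptosis, those of CEL name luspatercept in short, and those of CE say only that cells were treated and were taken as the remaining group, so every CE value rests on that match. There were 0 unmatched columns.

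Estimated counts were rounded, filtered with filterByExpr (14065 genes of 78932 kept), scaled with TMM, and tested in 1 quasi-likelihood fit of all 12 libraries (edgeR 4.0.16, common dispersion 0.0405), two-sided, with 6 contrasts. The SE was taken as |log2 change| over the root of F. The code was tested on simulated data. DESeq2 1.42.0 and limma 3.58.1 on log2(TPM + 1), log2(TPM + 0.1) and log2(FPKM + 1) were alternatives, with other scalings, no filter, the compared groups alone, a replicate block and each compared library left out. A GC offset, that offset with the block, and leaving out LPS 3, CE 2 and CEL 1 together were added after seeing the data, which makes 19 per comparison. The p-values therefore reflect the spread among these libraries alone, which may be technical. Replicates differed by more than sampling noise (chi-square per degree of freedom 3.37 to 145).

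The members, the 4 gene lists and the markers were chosen with earlier results of these data known. Named were the members, list genes picked for their textbook role, and 1 most similar gene per member (mean log2 CPM 3 or more). The labels give the replicate number as a batch, so the numbers pair the samples by label; over 7460 genes, 6 of 18 same-numbered pairs had deviations with r over 0.1 (median -0.185, range -0.86 to 0.73). Gene positions come from GENCODE on hg38 and promoter windows from RefSeq on GRCh38.p14. Proteins were not used here, and a few list genes that count in the list totals are not reported here by name.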

Additional observations from a re-analysis of the deposited data

How the results depend on the processing

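The replicate block changed no call of a member: 6, 5, 6, 3, 6 and 7 members passed in LPS against NC, CE against LPS, CEL against LPS, CEL against CE, CE against NC and CEL against NC, with or without pairing by number. Over all genes the block gave 5992, 6558, 7537, 2803, 8644 and 9185 calls, beside 6458, 6972, 7867, 3321, 9008 and 9425. On log2(TPM + 0.1) and log2(TPM + 1), limma called 2951 and 2963 genes in LPS against NC, 3545 and 3586 in CE against LPS, 4978 and 4984 in CEL against LPS, and 225 and 266 in CEL against CE. It called 3 members in CEL against LPS on both scales and 0 in CEL against CE on both. With only the CE and CEL libraries, CEL against CE had 1710 genes and 1 member. Leaving out 1 library gave 2120 to 4066 genes there and 1 to 4 members. The cause of these shifts was not tested.

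Of single-gene values of the members under alternatives, 885 kept direction and side of the threshold, 61 lost a call, 31 gained one and 49 changed sign. Of calls of the list genes picked for their textbook role, 1638 were kept, 167 were lost and 0 changed sign. The member values include comparisons that did not pass and the list values do not, so these counts are not alike. The sign changes include 2 differences of BAX that had passed, CEL against LPS and CEL against NC, and 1 of BID, CE against LPS. Leaving out 1 library gave these ranges: BCL2 in CEL against CE -0.43 to 0.08; BCL2L1 in CE against LPS -0.79 to 0.83, CEL against LPS -0.45 to 0.081, CEL against CE -0.96 to 0.62 and CE against NC -0.16 to 1.42. For BAK1 they were -0.996 to 0.76 in CE against LPS, -0.57 to 0.076 in CEL against LPS, -0.92 to 0.79 in CEL against CE and -0.050 to 1.67 in CE against NC. For BAX they were -0.034 to 0.087 in LPS against NC and -0.0076 to 0.13 in CE against LPS, and for PMAIP1 in CEL against CE -0.046 to 0.14.

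With LPS 3, CE 2 and CEL 1 left out together, BCL2L1 was -0.54 in CE against LPS, 0.31 in CEL against CE and -0.16 in CE against NC, BAK1 was -0.71, 0.40 and -0.049, and BAX in LPS against NC -0.030. With the GC offset, alone and with the block, CEL against LPS was 0.10 and 0.092 for BCL2L1, 0.093 and 0.10 for BAK1, and 0.093 and 0.083 for BAX, and BAX in LPS against NC was -0.12 and -0.11. On log2(TPM + 0.1) and log2(TPM + 1), BAX was -0.0153 and -0.0149 in LPS against NC, 0.10 and 0.10 in CEL against LPS, and 0.087 and 0.085 in CEL against NC, and BAK1 in CE against LPS was -0.061 and -0.0041. On log2(FPKM + 1), BAX was -0.16 in LPS against NC and -0.060 in CE against NC, and BAK1 in CE against LPS -0.15. With upper quartile factors BAX was -0.090 in LPS against NC, -0.12 in CE against LPS and -0.21 in CE against NC, and BID in CE against LPS -0.0095. With library size only, BAX was -0.10 in CE against LPS and -0.085 in CE against NC. Without the filter PMAIP1 in CEL against CE was -0.051. Depth limits BBC3, and the 22 control counts of BCL2A1.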

Other observations

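The nearest protein-coding genes on either side of the members were looked at in LPS against NC. Beside BCL2A1, which rose 105-fold, ST20-MTHFS at 37135 bases was 0.30 ± 0.53 (adjusted p = 0.683) and ZFAND6 at 88122 bases was 0.01 ± 0.07 (adjusted p = 0.952), by edgeR's quasi-likelihood test. ENSA, 21113 bases from MCL1, was -0.08 ± 0.05 (adjusted p = 0.227). Both neighbours of PMAIP1, CCBE1 and MC4R, had 1 count over the control libraries and 1 over the LPS libraries. BID lies 3283 bases from another BCL2 family gene, BCL2L13, which encodes a mitochondrial outer membrane protein: BCL2L13 rose by 0.22 ± 0.05 (adjusted p = 0.00502) where BID rose by 1.21 ± 0.05. The reverse was seen at BAX, which was 0.02 ± 0.07: its neighbour FTL at 3503 bases, the ferritin light chain gene, rose by 0.85 ± 0.07 (adjusted p = 2.52e-06).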
